A study of Mus musculus with 2 samples.

Results

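Described here are 10 genes of fat cells and of lipid handling in the newborn mouse adrenal gland, out of 43346 Ensembl genes in the deposited tables. Adipoq, Plin1, Cidec, Cidea, Cfd, Car3 and Ucp1 are known best from fat cells and are called adipocyte-restricted below as a working name, although Car3 and Plin1 are also made by other cells, while Fabp4, Fabp5 and Lpl are also used by other cells. All 10 were matched by Ensembl identifier. They were chosen by measured values of these same libraries, in which the level of Fabp4 stood far above those of Adipoq and Ucp1, so their levels and differences are given as a description with no test. The data are 2 total RNA-seq libraries, 1 per pup, each from the 2 adrenals of a B6NCrl pup at age 0 days. Both pups are labelled as from pregnant animal 1, no treatment or genetic change is given, and sex was not collected. Each library started from 10 ng of RNA and yielded 40800539 estimated counts for pup 2, with 41510071 for pup 1. The pups are replicates of a single group with 1 library each, so a difference between them has no replicate check, no p-value is given, and it may be technical.

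Fat cells store triglyceride in a large droplet and release fatty acids from it on demand. The perilipin and CIDE proteins coat and enlarge the droplet, lipoprotein lipase frees fatty acids from blood lipoproteins, and fatty acid binding proteins carry them inside cells. White fat also secretes the hormone adiponectin and the protease adipsin, whereas brown fat makes heat through the uncoupling protein Ucp1. Adrenals lie in fat beside the kidney, and in newborn mammals that fat can be of the brown kind. Steroid-making cells of the cortex have lipid droplets of their own, which hold cholesterol esters.

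All 8 markers of the adrenal cortex were present, with a summed level of 17788 TPM in pup 2 against 6639 TPM in pup 1 (TPM, transcripts scaled per length and to a common total), and all 8 chromaffin cell markers summed to 4901 TPM in pup 2 against 2320 TPM in pup 1. Among 18670 genes whose counts averaged 10 or more, a log2 TPM ratio of pup 2 over pup 1 exceeded the scaled-count one by 0.38 (median). A pair of TPM values can thus put pup 2 higher where scaled counts put it lower. Examples below are Angptl4 (log2 ratio by scaled counts -0.14), Ebf2 (-0.24), Cox7a1 (-0.33), C1qa (-0.37) and Krt14 (-0.12). Differences between the pups are therefore given as log2 ratios of counts scaled by TMM, whose median over all these genes was 0.00. Scaling by the added spike-in RNA moves every such ratio up by a median of 2.57, so directions are relative to the bulk of genes. In whole tissue, fewer cells of a type and less RNA per cell cannot be told apart.

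Fabp4 was abundant in both glands and most of the adipocyte-restricted genes were not. Fabp4, Fabp5 and Lpl together held 1024 TPM in pup 2 against 922 TPM in pup 1 (973 ± 72.6, SD, n = 2), and Fabp4 alone made up 80.4% of that sum in pup 2 and 72.3% in pup 1. The 7 adipocyte-restricted genes together held 103.8 TPM in pup 2 against 10.8 TPM in pup 1 (57.3 ± 65.8, SD, n = 2). The first sum was 9.86 times the second in pup 2 and 85.1 times in pup 1. The 2 sums thus differed unequally between the libraries, the adipocyte-restricted one by far the more. Car3 supplied 63.5% of the adipocyte-restricted sum in pup 2 and 37.0% in pup 1, and without it that sum was 37.9 TPM in pup 2 against 6.82 TPM in pup 1.

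**Figure D1:**
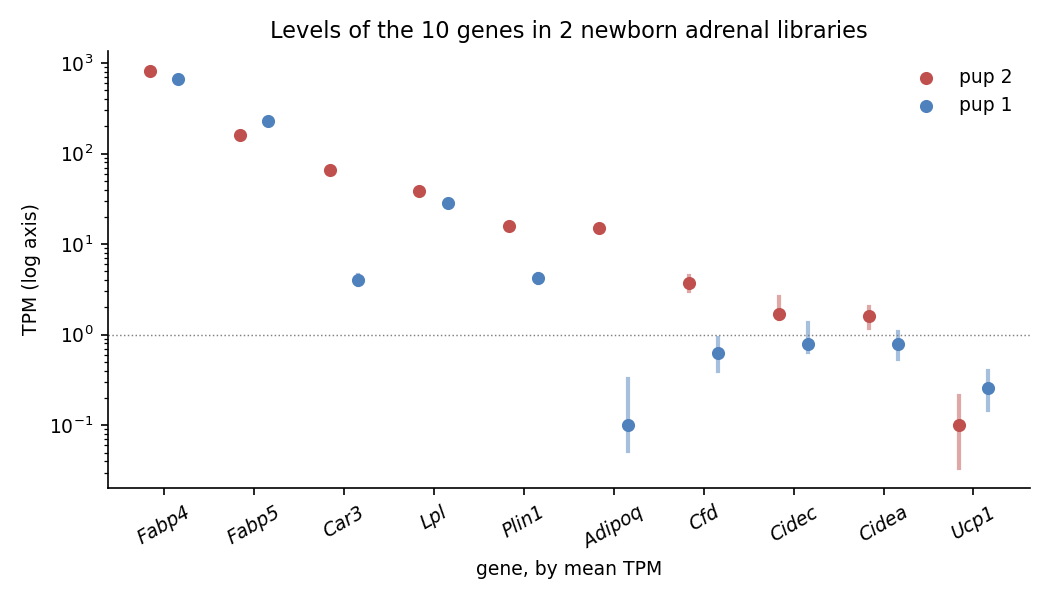
Level of each of the 10 genes in TPM on a log axis, with pup 2 in red left of pup 1 in blue, ordered by mean level. Bars are the quantifier's interval for each library and the dotted line marks 1 TPM; Fabp4 stood at 824 TPM in pup 2, 667 in pup 1, whereas Adipoq stood at 14.9 TPM in pup 2 against 0.10 TPM in pup 1.

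By mean level the order was Fabp4, Fabp5, Car3, Lpl, Plin1, Adipoq, Cfd, Cidec, Cidea and Ucp1. The values of neighbours did not overlap over the pups between Fabp4 and Fabp5, Fabp5 and Car3, Lpl and Plin1, or Cidea and Ucp1. They overlapped between Car3 and Lpl and throughout the run from Plin1 to Cidea, so the order within that run is not separated from the spread between the pups. At least 1 TPM was reached by 9 of the 10 genes in pup 2 and by 5 in pup 1. Of all 43346 genes, 15226 reached it in pup 2 and 14757 in pup 1. Among the adipocyte-restricted genes the tally was 6 of 7 in pup 2, all but Ucp1, and 2 of 7 in pup 1, namely Plin1 and Car3.

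Fabp4 encodes the fatty acid binding protein of adipocytes, which capillary endothelium and macrophages also make. It had 823.62 TPM in pup 2 against 666.74 TPM in pup 1, or 745.2 ± 111 TPM (SD, n = 2), and ranked 155th of all genes in pup 2 and 196th in pup 1. The deposited interval was 798.4 to 819.9 TPM for pup 2 and 648.5 to 666.1 for pup 1, both just below the deposited TPM of their library. Its gene lies on chromosome 3, 10204088 to 10208576, minus strand (ENSMUSG00000062515.3, mm10). It had 22022 counts in pup 2 and 21638 in pup 1, and its log2 ratio was -0.06 with a 95% binomial interval of -0.09 to -0.03, which covers counting error only. The libraries were thus close in Fabp4, and the ratio turned to 0.05 when totals were used in place of TMM and to 0.03 with a length trend removed. Its spliced coding transcript ENSMUST00000029041.5 held 99.4% of its TPM in pup 2 and 99.8% in pup 1.

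Fabp5, the epidermal type of the same family, had 161.47 TPM in pup 2 against 226.03 TPM in pup 1 (193.8 ± 45.7, SD, n = 2). It is encoded on chromosome 3, 10012548 to 10016607, plus strand (ENSMUSG00000027533.10). Its log2 ratio was -0.86 (interval -0.91 to -0.81), so by scaled counts pup 1 was 1.82-fold above pup 2, short of 2-fold. Fabp4 stood at 5.10 times the TPM of Fabp5 in pup 2 and at 2.95 times in pup 1. Reads of Fabp5 were assigned with little doubt, with a posterior standard deviation of 4.59 counts in pup 2 and 6.37 in pup 1.

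Lpl, lipoprotein lipase, had 39.07 TPM in pup 2 against 28.78 TPM in pup 1 (33.92 ± 7.28, SD, n = 2) and a log2 ratio of 0.01 (interval -0.05 to 0.08). It lies on chromosome 8, 68880491 to 68907448, plus strand (ENSMUSG00000015568.11). The coding transcript ENSMUST00000015712.10 held 58.6% of its TPM in pup 2 and 62.5% in pup 1. A shorter transcript that GENCODE M21 classes as a target of nonsense-mediated decay, ENSMUST00000168401.1, held 41.0% in pup 2 and 36.3% in pup 1; the mean was 38.7% ± 3.31 (SD, n = 2).

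Adipoq, the gene of the fat hormone adiponectin, was furthest apart between the pups of the 10 genes. It had 584 counts and 14.94 TPM in pup 2, against 5 counts and 0.10 TPM in pup 1, a 110-fold difference by scaled counts. The log2 ratio was 6.65 with an interval of 5.55 to 8.41. All of its counts fell on transcript ENSMUST00000023593.5 in both libraries. The gene lies on chromosome 16, 23146536 to 23158028, plus strand (ENSMUSG00000022878.5). Of 13870 genes whose counts averaged 100 or more, only 4, Adipoq included, had a ratio at least as high. No other such gene lay within 1 log2 unit of it. By the difference of log2 ratios over these 2 libraries, the 5 nearest were the developmental regulators Lhx1 (5.53) and Uncx (5.33), the myosins Myh1 (8.75) and Myh3 (4.14) and the pseudogene Amd-ps3 (9.12), of which Myh1 and Amd-ps3 had 0 counts in pup 1, so that their ratios depend on the added 0.5.

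Car3, the carbonic anhydrase abundant in adipocytes, slow muscle and liver, was the most abundant of the adipocyte-restricted genes in pup 2. It had 3321 counts and 65.89 TPM in pup 2 and 253 counts and 4.01 TPM in pup 1, at a log2 ratio of 3.63 (interval 3.44 to 3.82), a 12.4-fold difference. It lies on chromosome 3, 14863512 to 14872523, plus strand (ENSMUSG00000027559.5). Its coding transcript ENSMUST00000029076.5 held 91.8% of its TPM in pup 2 and 94.5% in pup 1, and a retained-intron transcript, ENSMUST00000195575.1, held 5.06% in pup 2 and 5.52% in pup 1. Car3 stood at 4.41 times the TPM of Adipoq in pup 2 and at 40.1 times in pup 1.

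Cfd, which encodes adipsin, the complement factor D that fat secretes, had 101 counts (3.74 TPM) in pup 2 and 21 counts (0.63 TPM) in pup 1. Its log2 ratio was 2.16 (interval 1.49 to 2.93), a 4.54-fold difference, and it has a single annotated transcript, on chromosome 10, 79890853 to 79892655, plus strand (ENSMUSG00000061780.5).

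Plin1, the perilipin of the large fat droplet, had 924 counts (15.87 TPM) in pup 2 and 304 counts (4.26 TPM) in pup 1. The log2 ratio was 1.52 (interval 1.33 to 1.71), a 2.87-fold difference, and the gene lies on chromosome 7, 79720218 to 79732903, minus strand (ENSMUSG00000030546.10). Plin1 is also known from steroid-making cells. Against Adipoq in the same library its TPM was 1.06 times in pup 2 and 42.6 times in pup 1, so in pup 1 Plin1 was present almost without Adipoq. The transcript ENSMUST00000178257.1 held 72.2% of its TPM in pup 2 and 88.1% in pup 1 and ENSMUST00000032762.9 the rest, but the intervals of the second were wide, 1.89 to 6.78 TPM for pup 2 and 0.0665 to 1.87 for pup 1, and nearly met.

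The start regions of these genes are shown because Adipoq, Plin1 and Cfd were over 2-fold higher in pup 2 and Ucp1 was over 2-fold higher in pup 1. RefSeq start regions on GRCm38.p6, the same assembly as mm10, of 250 bases before to 50 bases after the start were searched for 5 of the 10 genes, with 6 regions in all, and 4 are printed 5′ to 3′ on the strand of the gene. Regions of Car3, which was also over 2-fold higher in pup 2, and of Cidea, Fabp4, Fabp5 and Lpl are not given. Capitals mark 3 searched motifs on either strand: the CCAAT box (CCAAT), the TATA box (TATAAA) and the nuclear receptor core motif (AGGTCA), of which a pair with 1 base between makes the element that PPAR receptors bind.
Adipoq, chr16:23146286-23146585, plus strand: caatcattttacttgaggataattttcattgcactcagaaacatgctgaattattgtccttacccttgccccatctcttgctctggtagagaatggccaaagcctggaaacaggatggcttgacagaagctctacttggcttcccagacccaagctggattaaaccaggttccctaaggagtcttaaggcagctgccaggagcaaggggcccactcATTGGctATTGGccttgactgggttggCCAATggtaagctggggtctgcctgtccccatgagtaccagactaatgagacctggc
Plin1, chr7:79732727-79733026, minus strand: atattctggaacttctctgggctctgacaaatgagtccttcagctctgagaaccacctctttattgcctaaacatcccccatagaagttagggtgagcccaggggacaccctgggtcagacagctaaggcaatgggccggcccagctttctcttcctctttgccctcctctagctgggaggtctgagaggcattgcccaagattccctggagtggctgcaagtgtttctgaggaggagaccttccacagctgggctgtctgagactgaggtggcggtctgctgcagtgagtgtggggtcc
Cfd, chr10:79890603-79890902, plus strand: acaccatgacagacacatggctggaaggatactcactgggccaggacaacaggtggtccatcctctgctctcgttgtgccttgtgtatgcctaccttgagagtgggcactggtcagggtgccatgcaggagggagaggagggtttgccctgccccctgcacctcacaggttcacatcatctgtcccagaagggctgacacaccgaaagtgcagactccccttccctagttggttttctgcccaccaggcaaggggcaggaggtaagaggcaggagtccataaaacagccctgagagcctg
Ucp1, chr8:83290098-83290397, plus strand: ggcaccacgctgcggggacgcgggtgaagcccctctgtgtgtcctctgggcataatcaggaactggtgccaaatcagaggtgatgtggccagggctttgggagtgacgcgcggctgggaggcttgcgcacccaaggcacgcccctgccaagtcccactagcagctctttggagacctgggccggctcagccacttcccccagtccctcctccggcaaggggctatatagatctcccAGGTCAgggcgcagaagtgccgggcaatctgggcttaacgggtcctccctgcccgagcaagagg

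The Adipoq region held 3 CCAAT boxes, with their first bases 34, 27 and 7 bases before the start and the first 2 of them on the reverse strand. The Ucp1 region held 1 nuclear receptor core motif, 14 bases before the start. The Plin1 and Cfd regions held none of the 3 motifs, as did both regions of Cidec. No motifs overlapped in these regions. Of 32851 such regions over all genes, 37.4% held CCAAT, 13.6% TATAAA, 16.3% AGGTCA and 0.0396% the AGGTCA pair with 1 base between. A match is a description of these letters only, and the regions of Adipoq, Plin1 and Cfd shared no motif of the 3.

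Cidec and Cidea, proteins that fuse and enlarge lipid droplets, were near 1 TPM. By scaled counts both were within 2-fold between the pups, whereas by the ratio of TPM both were just over 2-fold higher in pup 2 (log2 1.11 for Cidec and 1.01 for Cidea). Cidec, which white fat uses most, had 89 counts (1.69 TPM) in pup 2 and 46 counts (0.78 TPM) in pup 1; the log2 ratio was 0.86 (interval 0.34 to 1.41). It lies on chromosome 6, 113424634 to 113435760, minus strand (ENSMUSG00000030278.7), and its transcript ENSMUST00000032416.6 held 100% of its TPM in pup 2 and 84.7% in pup 1. Nearly all the rest in pup 1 was ENSMUST00000113091.3 at 3.27 counts. The split is not well determined, since the interval of the first was 0.0942 to 1.73 TPM for pup 2 and 0.0109 to 0.691 for pup 1.

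Cidea, the member of that family typical of brown fat, had 56 counts (1.6 TPM) in pup 2 and 34 counts (0.79 TPM) in pup 1. Its log2 ratio was 0.63, and the lower end of its interval was at 0 and the upper at 1.29, so a difference was at the limit of what this depth can show. The gene lies on chromosome 18, 67343604 to 67367785, plus strand (ENSMUSG00000024526.8).

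Ucp1, the heat-making protein of brown fat mitochondria, was under 1 TPM in both libraries. It had 5 counts (0.10 TPM) in pup 2 and 16 counts (0.26 TPM) in pup 1, so the higher library was the reverse of that for Adipoq. Its log2 ratio was -1.66 (interval -3.57 to -0.25), and the TPM intervals overlapped, 0.0336 to 0.210 for pup 2 and 0.147 to 0.398 for pup 1. The gene lies on chromosome 8, 83290352 to 83298452, plus strand (ENSMUSG00000031710.3). Its mean count of 10.5 was just above the minimum of 10, and under spike-in scaling its ratio turned to 0.77.

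Of the 10 genes, all had a mean count of at least 10, and 4 were over 2-fold higher in pup 2 (Adipoq, Car3, Cfd and Plin1), as were 6.03% of the 18670 genes with that minimum. By the ratio of TPM the number was 6, with Cidec and Cidea added. A single gene, Ucp1, was over 2-fold higher in pup 1, as were 9.74% of genes. Ucp1 reached the count minimum only through pup 1 (16 counts, 5 in pup 2), and at such counts the minimum itself favours a ratio over 2-fold. The median log2 ratio was 1.52 over the 7 adipocyte-restricted genes and -0.06 over Fabp4, Fabp5 and Lpl. The median of the 7 was 1.19 without Car3 and the same without Adipoq. The TPM interval of pup 2 lay above that of pup 1 for 8 of the 10 genes, against 49.5% of all genes. Those 8 included Fabp4 and Lpl, whose log2 ratios by scaled counts were -0.06 and 0.01, and 6 adipocyte-restricted genes with ratios above 0. The reverse held for Fabp5 alone, against 11.9%. The genes were chosen with these differences known, so the counts are read as a description.

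**Figure D2:**
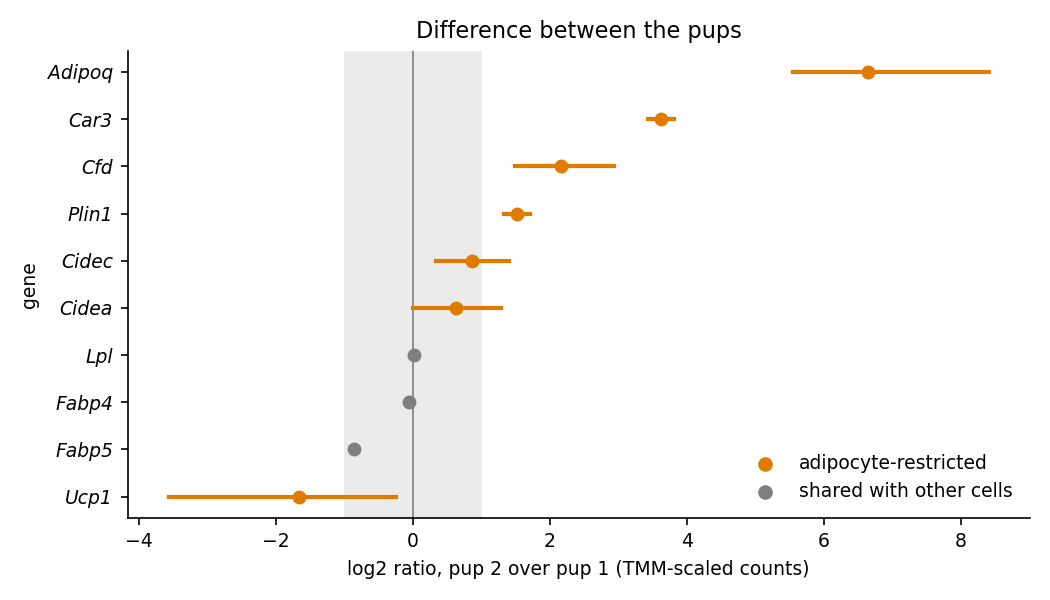
Log2 ratio of pup 2 over pup 1 by TMM-scaled counts for each of the 10 genes, with exact 95% binomial intervals that cover counting error only, adipocyte-restricted genes in orange and shared genes in grey. The shaded band is less than 2-fold; Adipoq (6.65), Car3 (3.63), Cfd (2.16) and Plin1 (1.52) lay above it and Ucp1 (-1.66) below it.

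Among 12 further adipocyte genes, 10 passed the count minimum and 3 of these were over 2-fold higher in pup 2, against 6.03% of all genes; the list's median log2 ratio was 0.46, against 0.00 over all genes. These were Retn, the gene of the white fat hormone resistin, Adig, which encodes adipogenin, and Acvr1c, a receptor of activin-like ligands on fat cells. Retn had 27 counts in pup 2 and 1 in pup 1 (log2 ratio 4.13, interval 2.07 to 10.03), Adig 24 in pup 2 and 2 in pup 1 (3.22, interval 1.49 to 6.63), and Acvr1c 297 in pup 2 and 108 in pup 1 (1.37, interval 1.05 to 1.71). Retn and Adig, like Adipoq, were near 0 in pup 1 and low but plain in pup 2. Retn and Adig reached the count minimum only through pup 2 (mean counts 14.0 and 13.0). At such counts the minimum itself favours a ratio over 2-fold, so the tally of 3 is a description only. The leptin gene Lep had 1 count in pup 2 and 0 in pup 1, and the fat-cell adrenergic receptor gene Adrb3 had 5 in pup 2 and 9 in pup 1. The 4 most abundant of the list were Agpat2 (72.8 TPM in pup 2 against 42.0 in pup 1), Thrsp (20.4 in pup 2, 11.1 in pup 1), Pck1 (12.8 in pup 2, 15.1 in pup 1) and Dgat2 (11.7 in pup 2, 13.7 in pup 1). All 4 were within 2-fold and are used outside fat as well.

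Of 12 regulators that build fat cells, none was over 2-fold apart, and their median log2 ratio was -0.04. Of all genes, 6.03% were over 2-fold higher in pup 2 and 9.74% in pup 1, so none of 12 is a description only. Cebpb (168 TPM in pup 2 against 72.1 TPM in pup 1), Cebpd (35.7 in pup 2, 42.2 in pup 1), Srebf1 (44.1 in pup 2, 24.8 in pup 1) and Ebf1 (13.5 in pup 2, 17.9 in pup 1) were the most abundant and act in many tissues. Pparg, the master regulator of fat cells, had 144 counts (2.56 TPM) in pup 2 and 110 counts (1.58 TPM) in pup 1; the log2 ratio was 0.30. Its partner Cebpa had 4.09 TPM in pup 2 against 2.81 TPM in pup 1. Pparg, Cebpa and the brown fat regulators Prdm16 (3.26 TPM in pup 2, 1.80 in pup 1) and Ebf2 (4.06 TPM in pup 2, 3.42 in pup 1) thus stood low in both libraries. Pparg and Cebpa were named after their values were seen, as were Adrb3, Prdm16 and Ebf2.

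The 4 most abundant droplet and lipolysis genes, which cells outside fat also use, stood above Plin1 in TPM. Plin2, the perilipin of most cell types, had 201 TPM in pup 2 against 102 TPM in pup 1, and Plin3 95.4 TPM in pup 2, 66.5 in pup 1. The lipase inhibitor gene G0s2 had 68.4 TPM in pup 2 against 79.5 TPM in pup 1, and the triglyceride lipase gene Pnpla2 61.8 TPM in pup 2, 24.0 in pup 1. Of 11 genes, all passing the count minimum, Lipe alone (25.7 TPM in pup 2, 8.30 in pup 1, log2 ratio 1.22) was over 2-fold higher in pup 2, against 6.03% of all genes. Lipe encodes the hormone-sensitive lipase, which frees cholesterol from its esters in steroid-making cells as well as fatty acids in fat. The list median was 0.14. Plin4, the perilipin most abundant in white fat, had 30 counts in pup 2 and 14 in pup 1 (log2 ratio 0.99, interval 0.06 to 2.04) and was named after its values were seen.

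Brown fat genes other than Ucp1 and Cidea were mostly low. Of 9, 5 passed the count minimum, with a median log2 ratio of -0.33. None of these 5 was over 2-fold apart, against 6.03% of all genes higher in pup 2 and 9.74% in pup 1. Cox7a1 (36.3 TPM in pup 2 against 34.98 TPM in pup 1), Fabp3 (15.9 in pup 2, 22.4 in pup 1), Cox8b (9.28 in pup 2, 6.13 in pup 1) and Ppara (7.18 in pup 2, 7.94 in pup 1) were the most abundant, and the cytochrome oxidase subunits Cox7a1 and Cox8b are also subunits of muscle. The deiodinase gene Dio2 had 6 counts in pup 2 and 0 in pup 1, Elovl3 and Otop1 each 1 in pup 2 and 0 in pup 1, and Zic1, a marker of the classical brown depot between the shoulders, 0 in both libraries, which allows up to 3 counts in each.

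**Figure D3:**
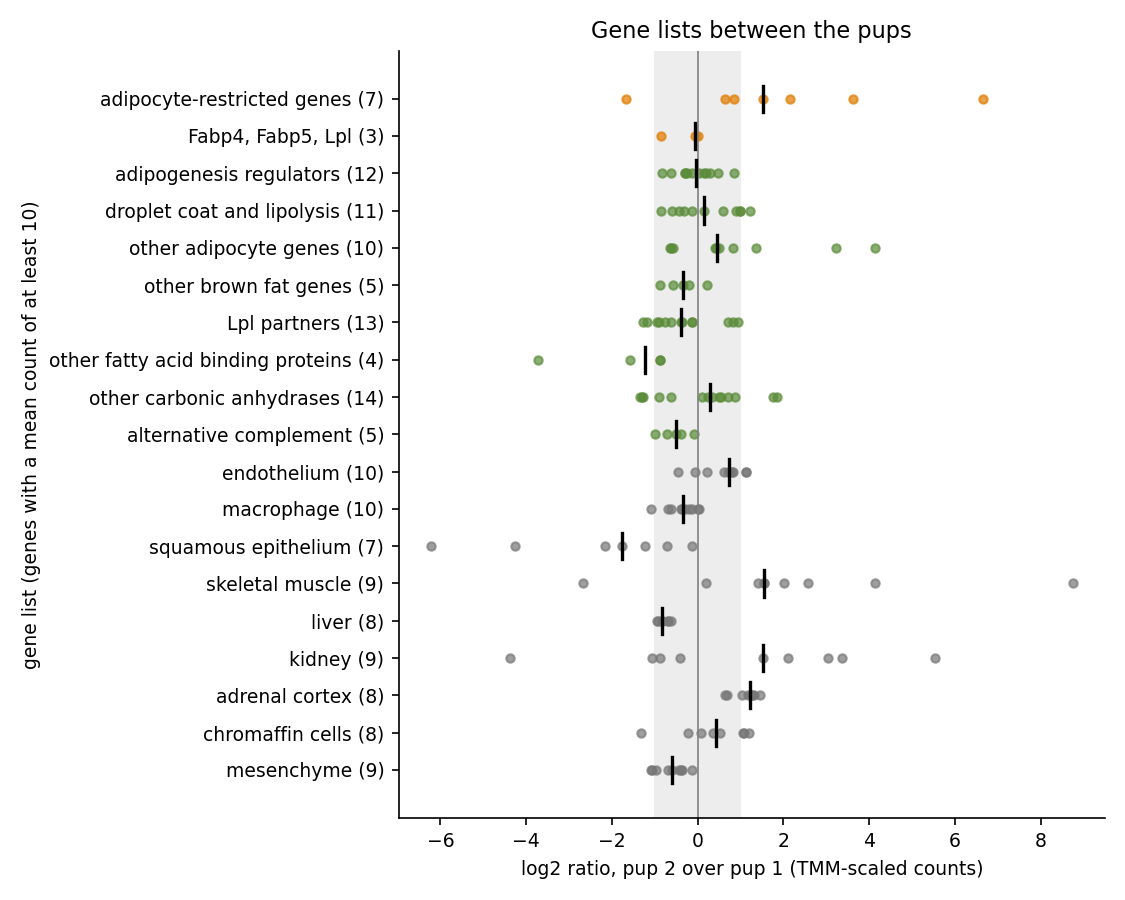
Log2 ratio of pup 2 over pup 1 by TMM-scaled counts for each gene with a mean count of at least 10, by gene list, with the number of such genes in brackets. Orange dots are the 10 genes of the set, green dots the related lists and grey dots the cell type markers; black ticks are list medians and the shaded band is less than 2-fold.

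Of 13 partners that place and regulate Lpl or handle its products, all passed the count minimum, with a median log2 ratio of -0.38. Gpihbp1, which anchors the lipase on capillary walls, had 130 TPM in pup 2 against 108 TPM in pup 1 (log2 ratio -0.13), a level above that of Lpl itself. Apoc2, the activator of the lipase, had 70.8 TPM in pup 2 against 103 TPM in pup 1, Angptl4, an inhibitor, 65.8 TPM in pup 2, 55.7 in pup 1, and Sel1l, which helps fold the lipase, 75.3 TPM in pup 2, 34.6 in pup 1. The fatty acid carrier gene Cd36, named after its values were seen, had 53.7 TPM in pup 2 against 21.4 TPM in pup 1, at a log2 ratio of 0.94. Of 13 genes, 2 were over 2-fold higher in pup 1, against 9.74% of all genes, and none in pup 2, against 6.03%. The 2 were Angptl8 (48 counts in pup 2 and 110 in pup 1, log2 ratio -1.27) and Apoc3 (207 counts in pup 2, 446 in pup 1, log2 ratio -1.19). Both are also made by liver, and all 8 liver markers had ratios below 0 (-0.94 to -0.63, summed level 1706 TPM in pup 2 against 2244 TPM in pup 1). The part of liver RNA in these 2 genes was not tested.

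Fabp4 and Fabp5 lie in a run of 5 fatty acid binding protein genes that spans 289 kb of chromosome 3, and only these were abundant there. Between them lie Pmp2, the myelin type, with 0.05 TPM in pup 2 against 0.17 TPM in pup 1, and Fabp9, the testis type, with 0 counts in both libraries, which allows up to 3 counts in each. Fabp12, beyond Fabp4, had 5 counts in pup 2 and 0 in pup 1. Elsewhere in the family Fabp1, the liver type, had 127 TPM in pup 2 against 177 TPM in pup 1, and Fabp7, of glia, 54.2 TPM in pup 2, 125 in pup 1 (log2 ratio -1.58). Fabp2, of intestine, had 2.47 TPM in pup 2 against 25.2 TPM in pup 1 (log2 ratio -3.73), and Fabp3, of heart and muscle, 15.9 TPM in pup 2, 22.4 in pup 1. Of the 8 other members, 4 passed the count minimum, all with ratios below 0 and with 2 over 2-fold higher in pup 1, against 9.74% of all genes (median -1.23).

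Car3 lies between Car1 and Car2 in a run of 4 carbonic anhydrase genes that spans 259 kb of the same chromosome, and its log2 ratio was above those of the other 3. Car2, abundant in red cells and many epithelia, had 107 TPM in pup 2 against 44.4 TPM in pup 1 (log2 ratio 0.88), Car1, of red cells, 5.41 TPM in pup 2, 2.63 in pup 1 (0.51), and Car13 4.42 TPM in pup 2, 6.28 in pup 1 (-0.89). Against these the ratio of Car3 was 3.63. Of 15 other carbonic anhydrases, 14 passed the count minimum, 2 were over 2-fold higher in pup 2 (6.03% of all genes) and 3 in pup 1 (9.74% of all genes), and the median was 0.29. The first were Car4 (93 counts in pup 2 and 24 in pup 1, log2 ratio 1.85) and Car12 (120 in pup 2, 33 in pup 1, 1.76), and the others Car11 (251 in pup 2, 602 in pup 1, -1.35), Car5a (10 in pup 2, 24 in pup 1, -1.30) and Car15 (12 in pup 2, 28 in pup 1, -1.27). Car11 and Car8 followed Car2 in mean level, Car8 at 9.09 TPM in pup 2, 4.77 in pup 1, and Car11 at 6.40 TPM in pup 2, 11.6 in pup 1, and Car6 had 0 counts in both libraries.

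**Figure D4:**
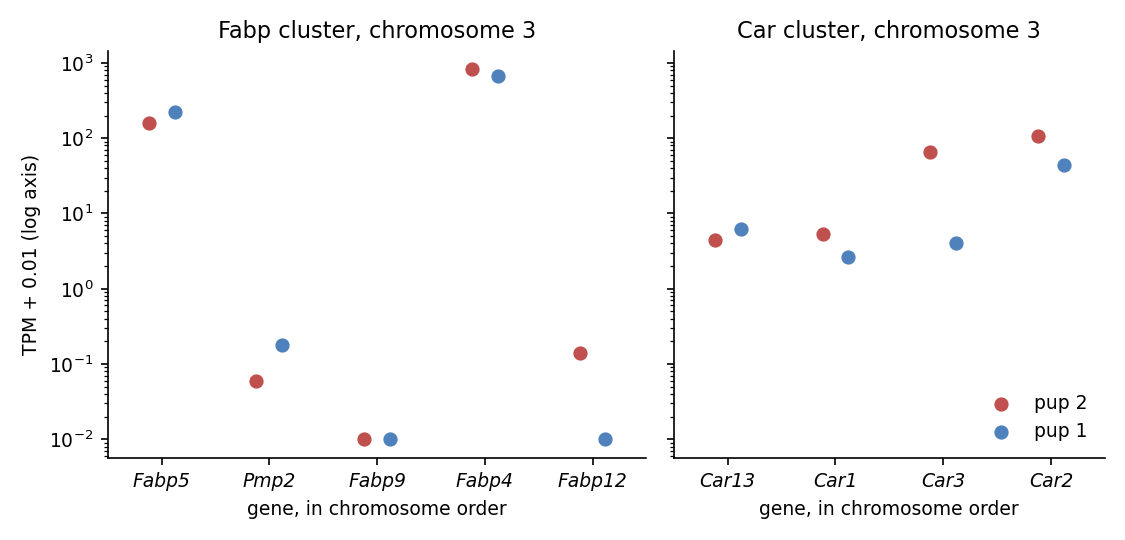
Level of each gene of the Fabp run (left) and the Car run (right) of chromosome 3, in chromosome order, as TPM + 0.01 on a log axis, with pup 2 in red left of pup 1 in blue. Genes at 0.01 had 0 TPM. Fabp4 and Fabp5 stood over 100 TPM in both pups with near-silent neighbours, and Car3 stood at 65.9 TPM in pup 2 against 4.01 TPM in pup 1.

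Genes of the complement route in which adipsin acts stood above Cfd in TPM. C3, the central complement protein, had 48.1 TPM in pup 2 against 56.9 in pup 1 (log2 ratio -0.51), and Cfb, the substrate of adipsin, had 20.8 TPM in pup 2 against 27.3 in pup 1 (-0.71). Cfp, which encodes properdin, had 14.9 TPM in pup 2 against 11.9 in pup 1, and its log2 ratio by scaled counts was -0.08 with an interval of -0.23 to 0.07 that spans 0.

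Markers of other cells that make these genes were set beside them. For Fabp4, the 10 endothelial markers summed to 428 TPM in pup 2 against 256 TPM in pup 1. Their median log2 ratio was 0.73, with 8 ratios above 0 and 2 below, those of Cdh5 (-0.45) and Egfl7 (-0.07). Highest in mean TPM were Egfl7 (118 TPM in pup 2, 94.0 in pup 1), Plvap (97.9 in pup 2, 42.6 in pup 1) and Emcn (63.0 in pup 2, 41.7 in pup 1). For Fabp4 and Lpl, the 10 macrophage markers summed to 520 TPM in pup 2 against 624 TPM in pup 1 with a median of -0.33. The list was led by Lyz2 (138 TPM in pup 2, 225 in pup 1), C1qb (148 in pup 2, 173 in pup 1) and C1qa (83.9 in pup 2, 83.1 in pup 1). Fabp4 had a log2 ratio of -0.06 and Lpl of 0.01, and no marker of either list was at 0. For Fabp5, squamous epithelium markers summed to 9.15 TPM in pup 2 against 19.1 TPM in pup 1, with a median of -1.76 over the 7 of 8 that passed, led by Krt14 (7.17 TPM in pup 2, 6.23 in pup 1), Krt4 (0.09 in pup 2, 5.57 in pup 1) and Krt13 (0.26 in pup 2, 3.87 in pup 1), and Dsg3 had 0 counts in pup 2 and 9 in pup 1. The part of these cells in the levels of Fabp4, Fabp5 and Lpl was not tested.

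By median log2 ratio, markers of skeletal muscle (1.56), kidney (1.53) and adrenal cortex (1.22) were higher in pup 2, as were the adipocyte-restricted genes (1.52). Of 9 muscle markers with enough counts, 7 were over 2-fold higher in pup 2 (6.03% of all genes), and the list summed to 264.6 TPM in pup 2 against 73.3 TPM in pup 1, led by Acta1 (163 TPM in pup 2, 42.3 in pup 1), Tnnt3 (41.2 in pup 2, 7.63 in pup 1) and Des (22.6 in pup 2, 14.7 in pup 1). Mb, the myoglobin gene, went the other way with 6 counts in pup 2 and 39 in pup 1, and Myh1 was at 0 in pup 1. Of 9 kidney markers with enough counts, 5 were over 2-fold higher in pup 2 (6.03% of all genes) and 2 in pup 1 (9.74%), and the list summed to 18.0 TPM in pup 2 against 4.39 TPM in pup 1, led by Cdh16 (3.75 TPM in pup 2, 0.67 in pup 1), Aqp2 (3.50 in pup 2, 0.92 in pup 1) and Pax2 (3.46 in pup 2, 0.22 in pup 1), with Umod at 3 counts in pup 2 and 0 in pup 1. The cortex markers, led by Hsd3b1, Cyp21a1 and Cyp11a1, had 8 of 8 ratios above 0. Of these 8, 6 were over 2-fold higher in pup 2 (6.03% of all genes). Chromaffin markers were also higher in pup 2 by median (0.44, led by Npy, Chga and Chgb). Of those 8, 3 were over 2-fold higher in pup 2 (6.03% of all genes) and 1 in pup 1 (9.74%). Mesenchyme markers were lower in pup 2, with all 9 ratios below 0, a median of -0.60 and sums of 2436 TPM in pup 2 against 2790 TPM in pup 1, led by Col3a1, Col1a1 and Dlk1. The part of muscle or cortex RNA in the ratios of Car3 and Plin1 was not tested, and the tables hold no position in the tissue, so where in or around the gland the adipocyte-restricted RNA lay was not tested.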

How the data were processed

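Total RNA-seq of 2 libraries was analysed, both in 1 group, with the pup number of the labels as replicate number. Per the file headers, the authors deposited expected counts, posterior mean counts, TPM with an interval (its bounds are taken as signal values), FPKM and, for transcripts, the isoform percent of a gene's TPM. The deposited TPM counts all rows of a file. FPKM, deposited by the authors, served only as an alternative. The text deposited with each library names mm10 and GENCODE M4, and the sources used here do not name the aligner, quantifier or strand handling. The posterior SD of counts and the effective length, deposited beside them, have no other unit.

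Of 69691 rows, the 97 spike-ins (0.0025% of pup 2's counts, 0.0138% of pup 1's) and 26248 numbered rows (9.59e-05% in pup 2, 2.65e-05% in pup 1) were left out of totals. Symbols (42462 genes) and coordinates came from GENCODE M21 by Ensembl identifier. Counts were rounded (15.9% in pup 2 and 15.3% in pup 1 were not whole). Ratios are log2 of pup 2 over pup 1, TMM-scaled in edgeR 4.0.16 (R 4.3.3), plus 0.5, for genes averaging 10 counts or more. Printed folds omit the 0.5. Intervals are exact binomial (Clopper-Pearson, 95%), and a count of 0 allows 3 counts; both cover counting error only. The steps were tested on simulated data. No test was run between single libraries.

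The 10 genes, 8 related lists and 9 marker lists were chosen with earlier results of these data known. Named are the 10 genes, the 4 most abundant (3 for markers), those over 2-fold apart in related lists, those at 0, and the 5 ratios nearest to that of Adipoq; isoforms are named at 5% or more of TPM. A gene of the complement list, and that list's count, are not reported here. Alternatives covered scaling (DESeq2 1.42.0, totals, spike-ins), minimum, pseudocount, posterior counts, TPM ratios, FPKM and a length trend of degree 3. The remaining software was python 3.11.15 with scipy 1.17.1, pandas 2.3.3, numpy 2.4.6 and matplotlib 3.10.9.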

Additional observations from a re-analysis of the deposited data

How the results depend on the processing

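Spike-in scaling moved the results most. Under it 9 of the 10 genes were over 2-fold higher in pup 2 and 0 in pup 1, the medians were 4.08 for the adipocyte-restricted genes and 2.51 for Fabp4, Fabp5 and Lpl, and the ratio of Ucp1 turned to 0.77. With a mean count of at least 100, which leaves 3 adipocyte-restricted genes, their median was 3.63 and 0 genes were over 2-fold higher in pup 1. Of those 3, Adipoq passed only through pup 2 (584 counts, 5 in pup 1), so the minimum itself favours a high median. As ratios of TPM the medians were 1.89 and 0.30, and 6 of the 10 genes were over 2-fold higher in pup 2. Total counts gave 0.05 for Fabp4, Fabp5 and Lpl. Chosen after seeing the data, leaving out Car3 or Adipoq gave a median of 1.19. The summed TPM of Fabp4, Fabp5 and Lpl was 1404 over nuclear protein-coding genes and 859 as FPKM. Leaving out each pup gave 10.8 to 104 TPM for the adipocyte-restricted sum and 922 to 1024 TPM for the other, and it gives no ratio, since each pup is 1 library. DESeq2 size factors, no count minimum, a pseudocount of 5 and posterior mean counts kept every gene's ratio within its interval. Depth limits Ucp1, Lep, Retn, Adig and, in pup 1, Adipoq, which rest on few counts.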
